A study of Caenorhabditis elegans with 18 samples.

Results

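The lipid binding protein genes lbp-1 to lbp-9 of Caenorhabditis elegans were followed through exposure to 5 small molecules, LK32, LK34, LK35, LK38 and LK56. Members were chosen by the gene symbol that the annotation of the Affymetrix array gives each probe set, a group of short probes read together as 1 value. Each of the 9 genes had 1 probe set, 9 of the 22548 probe sets tested, on an array whose probe sets of a single gene name 17118 genes. This rule uses the symbols alone.

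The animals were wild-type N2 young adults, grown for 56 h at 22°C after L1 arrest and then kept in liquid S Basal with E. coli OP50 as food, at 6000 animals per well. Total RNA of whole animals was taken after 8 h with 100 µM LK32, LK34, LK35, LK38 or LK56, or with a matching amount of the solvent DMSO. No pathogen was present, and all 6 groups share the strain, the food and the solvent. Each group had 3 biological replicates, lettered A, B and C, 1 array each and 18 arrays in all, and the same 3 DMSO arrays served as the control of every compound. The study chose these molecules as stimulators of host defense, and the arrays ask which transcripts each of them changes.

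The lbp genes encode the nematode fatty acid binding proteins, small proteins that hold a fatty acid in a barrel-shaped pocket and carry it through the watery space of a cell or of the body. LBP-1, LBP-2 and LBP-3 carry a signal for secretion, while LBP-5 and LBP-8 act inside cells. LBP-8 is known for carrying a lipid signal out of the lysosome to the nucleus, where the nuclear receptors NHR-49 and NHR-80 act on it. LBP-3 is known as a secreted carrier from the intestine to neurons, and LBP-5 has been linked to fat storage and to NHR-49, a receptor that works with the Mediator subunit MDT-15 in fatty acid metabolism.

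lbp-3 was the only member that was called against DMSO, where called means a Benjamini-Hochberg adjusted p under 0.05 in limma and a change of at least 2-fold. It was 4.71-fold higher under LK38, 4.37-fold higher under LK34 and 3.28-fold higher under LK35. lbp-5 passed the adjusted p with LK34 and LK35 at changes of less than 2-fold. lbp-6 and lbp-4 differed between compounds by under 2-fold, lbp-7 had the widest spread between replicates of the 8 measured members, and lbp-1, lbp-2 and lbp-9 passed no test. lbp-8 gave no signal above the floor of the array.

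Against DMSO, 0 of the 9 members were called higher under LK32, 1 under LK34, 1 under LK35, 1 under LK38 and 0 under LK56, and 0 were called lower with any compound. Of all 22548 probe sets, 0.696% were called higher under LK32, 1.49% under LK34, 0.993% under LK35, 1.57% under LK38 and 0.514% under LK56. The shares called lower were 0% under LK32, 0.812% under LK34, 1.15% under LK35, 0.75% under LK38 and 0.0133% under LK56. At an unadjusted p under 0.05 in the same limma fit, 4, 3, 2, 5 and 5 members were higher under LK32, LK34, LK35, LK38 and LK56, while 1 member was lower under LK34 and 1 under LK35. That unadjusted limit was passed in the higher direction by 14.3%, 16.8%, 14.8%, 15.6% and 21.4% of the 9033 brighter probe sets, those whose log2 intensity passed 5 on 3 or more arrays, and in the lower direction by 10.7% under LK34 and 13.7% under LK35. The median log2 fold change of the 8 measured members was 0.53 under LK32, 0.49 under LK34, 0.16 under LK35, 0.58 under LK38 and 0.47 under LK56. Over the brighter probe sets the medians were 0.12, 0.06, 0.04, 0.05 and 0.24 in the same order, and over all 22548 they were 0. All 8 measured members were among the brighter probe sets, of which 1.35%, 3.55%, 2.42%, 3.8% and 1.08% were called higher.

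**Figure D1:**
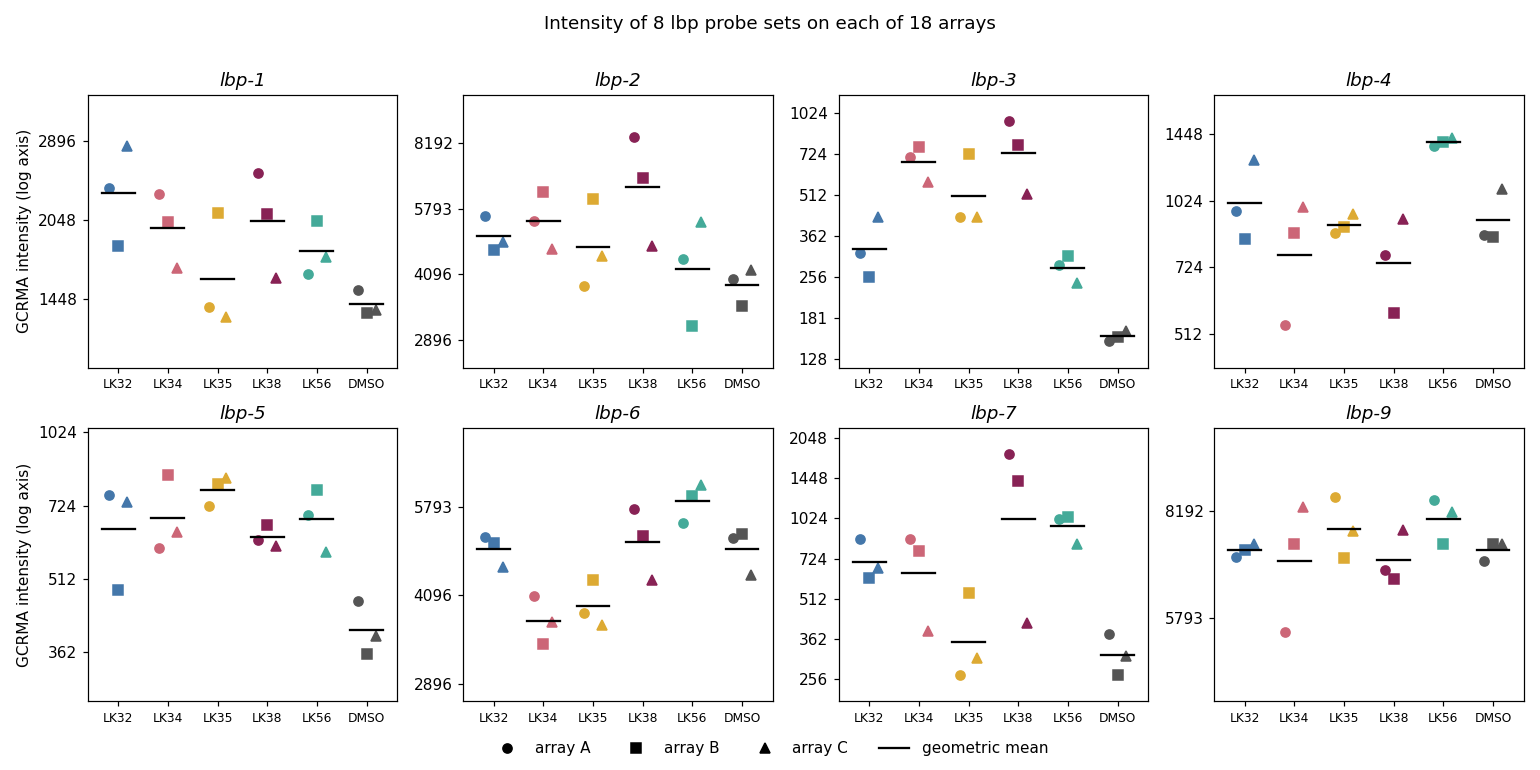
GCRMA intensity (log axis) of the 8 measured lbp probe sets on each of 18 arrays, by compound and DMSO, with a bar at the geometric mean of each group and the replicate letter as the shape of the point. The LK34, LK35 and LK38 points of lbp-3 all lie at 424 or above, against 149 to 162 in DMSO, and the LK38 points of lbp-7 spread over 414 to 1779.

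The genes of the secreted carriers, lbp-1, lbp-2 and lbp-3, stand side by side on chromosome X in the RefSeq annotation, with 0 protein-coding genes between neighbours, and were measured by separate probe sets. The intensity of lbp-3 (F40F4.4) was 313, 255 and 425 under LK32, 704, 771 and 570.0 under LK34, 426, 723 and 424 under LK35, 955, 784 and 516 under LK38 and 283, 306 and 243 under LK56, against 149, 154 and 162 under DMSO (arrays A, B and C). Every array of every compound lay above every DMSO array. The lowest compound value was 243, on an LK56 array, against 162 for the highest DMSO value.

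The mean of lbp-3 was 752 ± 221 under LK38, 682 ± 103 under LK34 and 524 ± 172 under LK35, against 155 ± 6.63 under DMSO (SD, n = 3 each). The fold was 4.71 under LK38 (95% interval 3.19 to 6.95, adjusted p = 0.000254), 4.37 under LK34 (2.96 to 6.46, adjusted p = 0.000429) and 3.28 under LK35 (2.22 to 4.84, adjusted p = 0.00225). These 3 calls held when each of the 18 arrays was left out in turn. With LK35 and LK38 they were lost in a fit of the 3 compound arrays and the 3 DMSO arrays alone, where the adjusted p was 0.0878 with LK35 and 0.0574 with LK38.

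With the other 2 compounds lbp-3 lay between those groups and DMSO. Its mean was 331 ± 86.4 with LK32 and 277 ± 32.0 with LK56 (SD, n = 3 each), 2.09-fold (95% interval 1.42 to 3.09) and 1.78-fold (1.21 to 2.64) the DMSO level. Neither change passed, at adjusted p = 0.0992 with LK32 and 0.191 with LK56. When the brighter probe sets alone were tested, the adjusted p with LK32 was 0.0329 and the change was called.

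The order of the lbp-3 levels was LK38, LK34, LK35, LK32, LK56 and DMSO, and no neighbours in that order were called different. Compounds further apart in it were. lbp-3 was lower with LK32 than with LK34, at a log2 difference of -1.06 (SE 0.26, adjusted p = 0.0263), and lower with LK32 than with LK38, at -1.17 (SE 0.26, adjusted p = 0.0163). It was 2.45-fold higher with LK34 than with LK56 (95% interval 1.66 to 3.62, adjusted p = 0.0073) and 2.64-fold higher with LK38 than with LK56 (1.79 to 3.90, adjusted p = 0.0046). The difference between LK35 and LK56, in log2 terms, was 0.88 (SE 0.26, adjusted p = 0.052), with no overlap of their arrays, and it passed and reached 2-fold after median centring or quantile normalization of the arrays (adjusted p = 0.00417 and 0.0127).

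The 2 calls that involve LK32 were lost in some fits that left out 1 array, which also hold fewer arrays. The difference between LK32 and LK34 was not called without LK32 A, LK32 B, LK34 A or LK34 B, where the log2 values were -1.04, -0.89, -1.04 and -0.97. The difference between LK32 and LK38 was not called without LK32 A, LK32 B, LK38 A or LK38 B, where they lay between -1.15 and -0.98.

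**Figure D2:**
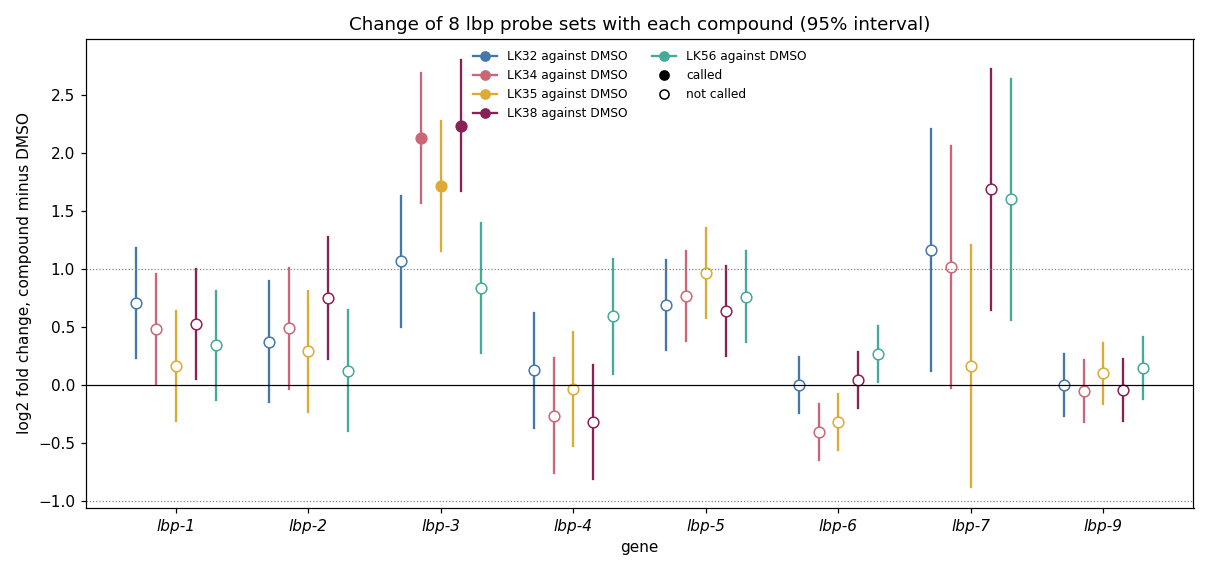
Log2 fold change of each measured lbp probe set, compound minus DMSO, with its 95% interval from limma, where filled points were called and dotted lines mark 2-fold. Only lbp-3 with LK34, LK35 and LK38 is filled, at 2.13, 1.71 and 2.23, and the intervals of lbp-7 are the widest.

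lbp-1 (F40F4.3) had intensities of 2359, 1834 and 2840.4 under LK32, 2300.5, 2030.3 and 1660.0 under LK34, 1399, 2118 and 1342 under LK35, 2525, 2108 and 1592 under LK38 and 1620.2, 2044 and 1743 under LK56, against 1512, 1363 and 1382 under DMSO. All arrays of LK32, LK34, LK38 and LK56 lay above the DMSO arrays, while those of LK35 overlapped them. The log2 fold changes were 0.70 under LK32, 0.48 under LK34, 0.16 under LK35, 0.52 under LK38 and 0.34 under LK56 (SE 0.22), with adjusted p = 0.22 at the lowest, so lbp-1 passed with no compound.

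lbp-2 (F40F4.2) had intensities of 5572, 4664 and 4847 under LK32, 5434, 6314 and 4671 under LK34, 3851, 6086 and 4508 under LK35, 8461, 6829.6 and 4763 under LK38 and 4432, 3122 and 5393 under LK56, against 3993, 3465 and 4191 under DMSO. The LK32, LK34 and LK38 arrays lay above DMSO, and the LK35 and LK56 arrays overlapped it. Its highest fold change was 0.75 on the log2 scale with LK38 (SE 0.24, 95% interval 0.23 to 1.27, adjusted p = 0.135), and the other 4 lay between 0.12 and 0.49.

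lbp-3 was thus called with 3 compounds and its 2 neighbours with none, but the difference between the genes was not tested. With LK38 the 95% interval of the lbp-2 log2 fold change reached up to 1.27, while that of lbp-3 began at 1.67.

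lbp-5 (W02D3.7) and lbp-6 (W02D3.5) lie on chromosome I with 1 protein-coding gene between them. lbp-5 had intensities of 761, 485 and 736 under LK32, 592, 835 and 639 under LK34, 722, 801 and 824 under LK35, 614, 661 and 597 under LK38 and 692, 781 and 582 under LK56, against 461, 358 and 391 under DMSO. As for lbp-3, all 15 compound arrays lay above all 3 DMSO arrays, the closest being 485 on LK32 B and 461 on DMSO A. That order held for 0.874% of all probe sets and for 2.04% of the brighter ones.

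lbp-5 averaged 782 ± 53.5 with LK35 and 689 ± 129 with LK34, against 403 ± 52.4 with DMSO (SD, n = 3 each). Both changes passed the adjusted p and stayed under 2-fold, at 1.95-fold with LK35 (95% interval 1.49 to 2.55, adjusted p = 0.00848) and 1.70-fold with LK34 (1.30 to 2.22, adjusted p = 0.0337). The means were 661 ± 153 under LK32, 624 ± 33.2 under LK38 and 685 ± 99.6 under LK56 (SD, n = 3 each), and the log2 fold changes 0.69, 0.64 and 0.76 (SE 0.18) did not pass, at adjusted p = 0.125, 0.08 and 0.0839. The adjusted p with LK35 stayed under 0.05 without any 1 of the 18 arrays and that with LK34 in 14 of 18 such fits. Both were lost in a fit of the compound and DMSO arrays alone, at adjusted p = 0.0623 with LK35 and 0.172 with LK34. Without DMSO A or without LK35 A the change with LK35 was called, at 1.06 and 1.02 on the log2 scale.

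No pair of compounds differed in lbp-5 at an adjusted p under 0.05. The differences between compounds lay between -0.27 and 0.33 on the log2 scale, and their 95% intervals reached as far as -0.66 for LK32 minus LK35 and 0.71 for LK35 minus LK38.

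The intensities of lbp-6 were 5133, 5012 and 4576 under LK32, 4087, 3382 and 3681 under LK34, 3821, 4343 and 3638 under LK35, 5741.5, 5153 and 4342 under LK38 and 5437, 6032 and 6295 under LK56, against 5128, 5211 and 4422 under DMSO. The LK34 and LK35 arrays lay below all DMSO arrays and the LK56 arrays above them, while those of LK32 and LK38 overlapped DMSO. Against DMSO no change passed, with log2 values of -0.41 under LK34 (adjusted p = 0.0725), -0.32 under LK35 (0.177) and 0.27 under LK56 (0.364), all with SE 0.11.

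Between compounds 3 differences of lbp-6 passed the adjusted p, all under 2-fold. lbp-6 was lower with LK34 than with LK56, by 0.67 on the log2 scale (95% interval -0.91 to -0.43, adjusted p = 0.00222), and lower with LK35 than with LK56, by 0.59 (-0.83 to -0.35, adjusted p = 0.00448). It was higher with LK32 than with LK34, by 0.40 (0.16 to 0.64, adjusted p = 0.0476), but this passed in only 5 of 18 fits that left out 1 array, with adjusted p up to 0.186. The differences from LK56 passed in all 18 such fits and were lost after median centring, at adjusted p = 0.0654 for LK34 and 0.2 for LK35. In level the order was LK56, LK38, DMSO, LK32, LK35 and LK34, and no neighbours in it differed at an adjusted p under 0.05.

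**Figure D3:**
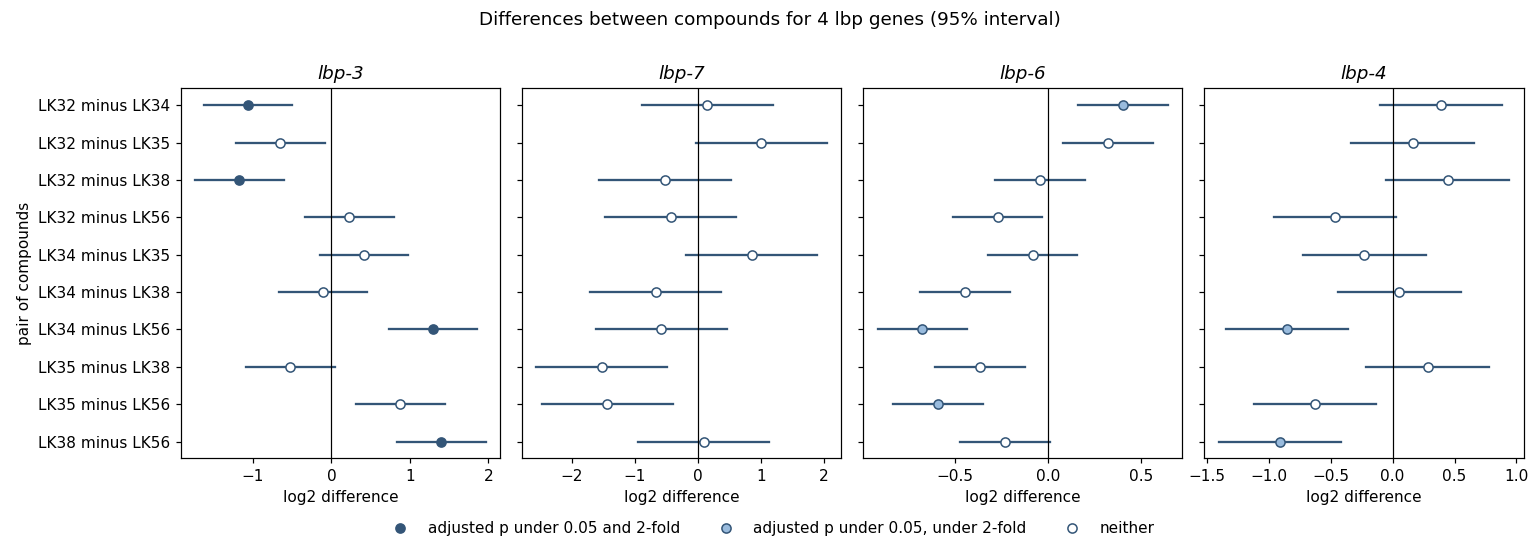
Log2 difference between each pair of compounds, first minus second, for lbp-3, lbp-7, lbp-6 and lbp-4, with 95% intervals from limma; each panel has its own scale. Dark points were called and light blue points passed the adjusted p at under 2-fold: 4 dark for lbp-3, none dark or light for lbp-7, 3 light for lbp-6 and 2 light for lbp-4.

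The remaining members lie on chromosome V. lbp-4 (ZK742.5) had intensities of 970.0, 837 and 1265 under LK32, 536, 863 and 988 under LK34, 864, 891 and 955 under LK35, 769, 570.3 and 928 under LK38 and 1362, 1394 and 1421 under LK56, against 858, 847 and 1088 under DMSO. The LK56 arrays were the highest of all 18, at 1362 to 1421, and the arrays of the other 4 compounds overlapped DMSO. The log2 fold change with LK56 was 0.59 (SE 0.23, 95% interval 0.10 to 1.08) and did not pass, at adjusted p = 0.321, and the other 4 lay between -0.32 and 0.13. lbp-4 was lower with LK34 and with LK38 than with LK56, by 0.85 and 0.91 (SE 0.23, adjusted p = 0.0348 and 0.0255), both under 2-fold. Each passed in 13 of 18 fits that left out 1 array, with adjusted p up to 0.131 for LK34 and 0.118 for LK38. They reached 2-fold and were called without LK34 C (-1.03) and without LK38 C (-1.07), and the difference between LK38 and LK56 was also called with array weights (-1.23).

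lbp-7 (T22G5.2) spread widely within groups. Its intensities were 854, 615 and 670.0 under LK32, 859.8, 774 and 389.5 under LK34, 265, 538 and 308 under LK35, 1779, 1417 and 414 under LK38 and 1021.5, 1037 and 821 under LK56, against 379, 265 and 312 under DMSO. The arrays of LK32, LK34, LK38 and LK56 lay above DMSO, those of LK34 and LK38 by a narrow margin on array C, and those of LK35 overlapped it. Within the LK38 group the highest array was 4.29 times the lowest, against 1.26 times within LK56 and 1.43 times within DMSO.

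The fold changes of lbp-7 were 1.16 under LK32, 1.02 under LK34, 0.16 under LK35, 1.69 under LK38 and 1.60 under LK56 on the log2 scale, each with SE 0.48. None passed, at adjusted p = 0.471, 0.431, 1, 0.0836 and 0.175. Without LK38 C the change with LK38 was 2.33 and was called (adjusted p = 0.00274), and so was that with LK56, at 1.60 (adjusted p = 0.0459), since the spread is pooled over all arrays. Each was called in only 1 of 18 fits that left out 1 array, with adjusted p up to 0.308 for LK38 and 0.498 for LK56. The change with LK38 was also called after median centring (adjusted p = 0.0462) and among the brighter probe sets alone (adjusted p = 0.0213).

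lbp-8 (T22G5.6), 3 protein-coding genes from lbp-7, was at the floor of 4.605 on all 18 arrays. Its level and any change in it were not detectable here, and the suffix of its probe set marks probes that can also match other transcripts. At the floor on every array were 8162 of the 22548 probe sets.

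lbp-9 (Y40B10A.1) varied least, between 5541 and 8580.5 over all 18 arrays. Its log2 fold changes against DMSO lay between -0.05 and 0.15 (SE 0.12) with adjusted p of 0.847 or more, and the highest upper bound of a 95% interval, with LK56, was 0.41. The intensity 7368.9 occurred on 5 arrays, DMSO B and C, LK32 C, LK34 B and LK56 B, so this probe set gave fewer distinct values than arrays. One value on 5 or more arrays was found for 1332 of the brighter probe sets (14.7%).

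LK35 and LK38 share a phenyl triazene with alkyl groups on its nitrogen, and differ elsewhere in structure. They were compared at the same dose and time, as 1 of 10 pairs of compounds. lbp-7 was 0.348-fold as high under LK35 as under LK38 (95% interval 0.169 to 0.715), at 371 ± 147 under LK35 and 1204 ± 707 under LK38 (SD, n = 3 each), which did not pass (adjusted p = 1, unadjusted p = 0.00758). Without LK38 C the difference was -2.17 on the log2 scale and was called (adjusted p = 0.0157). That was the only call in 18 fits that left out 1 array, where the difference lay between -2.17 and -1.12. lbp-3 differed by -0.52 (95% interval -1.08 to 0.04), lbp-6 by -0.36 (-0.60 to -0.12) and lbp-5 by 0.33 (-0.06 to 0.71), each at adjusted p = 1.

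Over all 10 pairs, 4 of 80 tests on the measured members were called, all of lbp-3. Each of the pairs LK32 and LK34, LK32 and LK38, LK34 and LK56, and LK38 and LK56 gave 1 call, where 4.04%, 3.75%, 4.29% and 3.97% of all probe sets were called. The other pairs gave 0 calls in limma. The background was 5.1% for LK32 and LK35, 0.235% for LK32 and LK56, 0.0843% for LK34 and LK35, 0.231% for LK34 and LK38, 0.191% for LK35 and LK38 and 5.14% for LK35 and LK56. At an unadjusted p under 0.05 these pairs had 3, 1, 0, 1, 2 and 4 members, against 38.6%, 10.4%, 4.46%, 3.47%, 4.87% and 42.7% of the brighter probe sets. The shares of brighter probe sets called in the pairs with a call were 8.85%, 8.25%, 9.58% and 8.81%. The F test over the 6 groups passed for lbp-3 (adjusted p = 0.000476), lbp-6 (0.00852) and lbp-5 (0.032), 3 of the 9 members and of the 8 measured, against 10.6% of all probe sets and 24.4% of the brighter ones.

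The replicates of several members deviated together. In the LK38 group, array A was the highest and array C the lowest for lbp-1, lbp-2, lbp-3 and lbp-7, with C below its group mean by 1.29 on the log2 scale for lbp-7, 0.50 for lbp-3 and 0.45 for lbp-2. In the LK35 group array B was the highest for the same 4 genes, above its group mean by 0.61 for lbp-7, 0.51 for lbp-3 and 0.42 for lbp-1. In the LK34 group array C was the lowest for all 4, below its group mean by 0.71 for lbp-7. The mean correlation with the other arrays of the same group, over all 22548 probe sets, was 0.990 for LK38 C, 0.9894 for LK35 B and 0.9951 for LK34 C, within a range of 0.9863 to 0.9968 over the 18 arrays. The part of such differences between arrays in the lbp values was not tested.

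**Figure D4:**
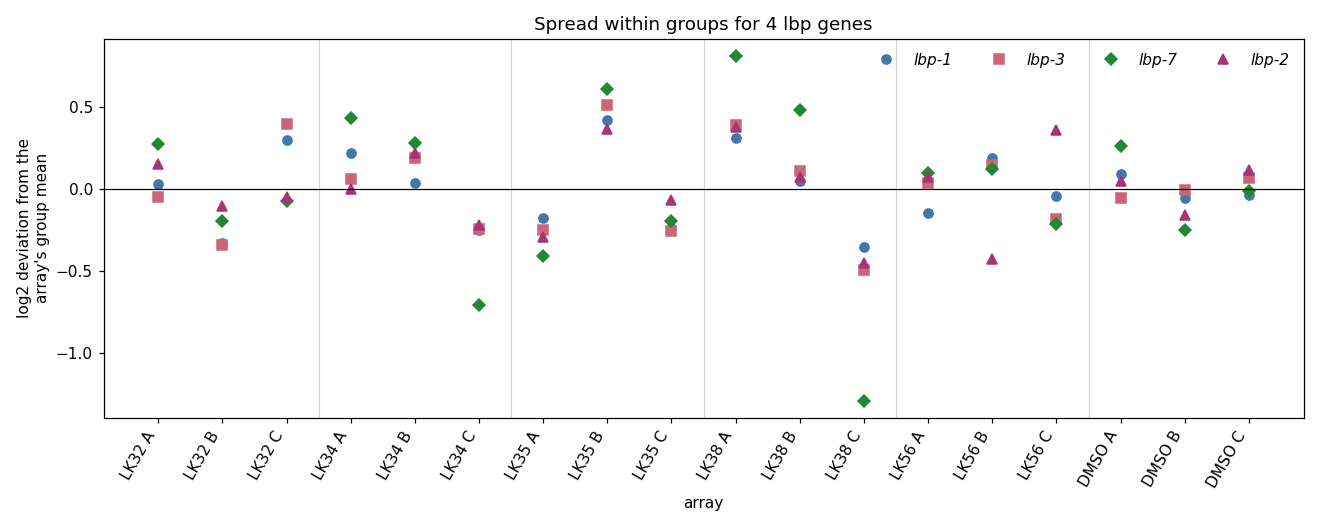
Deviation of each array from the mean of its own group on the log2 scale, for lbp-1, lbp-2, lbp-3 and lbp-7, with the 18 arrays in order of group. The 4 genes lie on the same side of 0 on every LK34, LK35 and LK38 array and on LK32 B and DMSO B, and lbp-7 on LK38 C lies farthest from 0, at -1.29.

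Among 8590 brighter probe sets of exactly 1 gene, those most like lbp-3 over the 18 arrays in log2 intensity were pck-1 (Pearson r = 0.976, Spearman rho = 0.975), which encodes phosphoenolpyruvate carboxykinase, pccb-1 (r = 0.975, rho = 0.966), a subunit of propionyl-CoA carboxylase, and W04B5.3 (r = 0.974, rho = 0.959). The points share their treatment groups. The correlation of deviations from the group means was 0.822 for pck-1, 0.808 for pccb-1 and 0.92 for W04B5.3.

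Other lipid carriers were taken from lists of fixed membership. Of the 7 probe sets of the acyl-CoA binding proteins acbp-1, acbp-3, acbp-4, acbp-5, acbp-6 and maa-1, which hold the activated form of fatty acids, 0 were called with any compound, and acbp-4 was at the floor. Of the 8 far genes, which encode fatty acid and retinol binding proteins, 1 was called higher with each compound and 0 lower, always far-3. far-3 was 26.9-fold higher under LK32, 14.8-fold under LK34, 7.16-fold under LK35, 57.5-fold under LK38 and 12.7-fold under LK56, against a DMSO mean of 37.7 ± 8.53 (SD, n = 3).

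Of the 15 probe sets of lysosomal lipases and of regulators tied to LBP-8 and to fat metabolism, 2 were called higher under LK32, 1 lower under LK34 and under LK35, 1 higher and 1 lower under LK38, and 0 under LK56. With LK32 these were lipl-3, a lysosomal acid lipase, at 10.5-fold (151 ± 16.1 against 15.7 ± 8.33 with DMSO), and sbp-1, the nematode SREBP, at 2.33-fold (adjusted p = 0.00306). lipl-3 was lower with LK34, LK35 and LK38, where it lay at or near the floor. lipl-1 was higher with LK38, at 933 ± 834 against 8.18 ± 0.129 with DMSO (SD, n = 3 each, adjusted p = 0.0235). lipl-4, the lipase upstream of LBP-8 and LBP-3 in the known lysosomal signal, stayed dim, with group means between 6.92 and 10.7, and nhr-49, nhr-80 and mdt-15 were not called with any compound.

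Of 13 probe sets of genes known to depend on NHR-49, of which 3 were at the floor and 2 of 10 symbols matched none, 0 were called with LK32 and with LK56. With LK34 and LK38 2 were called higher, fat-5 and fat-6, which encode desaturases of saturated fatty acids, and with LK35 3, these and icl-1 of the glyoxylate cycle, by 1 of its 3 probe sets (2.02-fold, the others 1.33-fold and 1.37-fold and not called). The same icl-1 probe set passed the adjusted p at under 2-fold with LK34 (1.92-fold, adjusted p = 8.6e-05) and LK38 (1.74-fold, adjusted p = 0.00028). fat-5 was 7.57-fold higher under LK34, 4.42-fold under LK35 and 9.71-fold under LK38. hacd-1 of the same list went the other way and was not called, at 0.283-fold, 0.296-fold and 0.314-fold in that order. Its DMSO arrays spread widely, at 924 ± 576 (SD, n = 3). The median log2 fold change against DMSO lay between 0.08 and 0.41 over the 5 compounds for the acyl-CoA binding list, between 0 and 0.28 for the far list, between -0.03 and 0.48 for the lipases and regulators and between -0.13 and 0.48 for the NHR-49 list, beside 0.04 to 0.24 over the brighter probe sets and 0 over all.

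RNA of whole animals mixes all tissues, so fewer cells of a type and less RNA per cell cannot be told apart. With the 3 compounds under which lbp-3 was called, 30, 30 and 29 of the 31 probe sets of the major sperm proteins were called lower (LK34, LK35, LK38), and 0 with LK32 and LK56. Their summed intensity was 16620 to 25510 under LK34, 15280 to 16360 under LK35, 18130 to 27330 under LK38, 73870 to 75950 under LK32 and 67640 to 125100 under LK56, against 81830 to 96180 under DMSO. The sum over 3 oocyte markers was 11230 to 14820 under LK34, 11610 to 14400 under LK35 and 8520 to 13940 under LK38. Under DMSO it was 7429 to 8361, under LK32 6888 to 7562 and under LK56 6051 to 8623. The sum over 6 germ line probe sets was 14040 to 16240 under LK34, 14270 to 16710 under LK35 and 12780 to 16660 under LK38. Under DMSO it was 11790 to 12630, under LK32 9715 to 11600 and under LK56 9134 to 13140. Over 8 neuronal probe sets it was 6334 to 6689 under LK34, 5822 to 6659 under LK35 and 6233 to 7455 under LK38. Under DMSO this neuronal sum was 5025 to 5542, under LK32 5580 to 6737 and under LK56 5344 to 5724. It came mostly from snb-1, with DMSO means of 2131 and 2979. The brighter egl-3 probe set was not called, at 0.581-fold under LK34, 0.407-fold under LK35 and 0.603-fold under LK38. The median log2 fold change of the neuronal list was -0.009, -0.008 and 0 in the same order. The part of these marker values in the lbp-3 values was not tested.

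Of the 7 probe sets of intestinal markers 1 was called lower, that of ifb-2, with folds of 0.294 under LK34, 0.244 under LK35 and 0.342 under LK38. The vitellogenin genes vit-2 and vit-6 were the brightest of the list and not called, and neither were elt-2 and ges-1, where ges-1 stood at 2.84-fold under LK38 (adjusted p = 0.154). Of the 7 body wall muscle probe sets 1, among the 3 of unc-15, was called lower with LK35. Their sum was 9888 to 15650 under LK34, 8177 to 15090 under LK35 and 10170 to 22710 under LK38, against 17820 to 21360 under DMSO. Under LK32 and LK56 the muscle sum was 20830 to 24710 and 20700 to 24730. The sum over 5 epidermal probe sets was 4174 to 4860 under LK34, below the DMSO range of 4951 to 6491. It was 5581 to 6496 under LK35, 5715 to 6261 under LK38, 6089 to 6825 under LK32 and 6594 to 7330 under LK56. The part of these tissue markers in the lbp-3 values was not tested. The markers unc-22, sng-1, myo-2, gld-1, pes-10 and med-1 each had a probe set at the floor on every array, as did 1 of the sperm probe sets. Over the arrays, 46.3% to 49.4% of probe sets lay at the floor.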

How the data were processed

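RNA of 18 samples (6 groups of 3) was hybridised to Affymetrix C. elegans arrays. The authors summarised the arrays with GCRMA (version not given in the sources used here), and deposited linear intensities between a floor of 4.605 and 58200.7. GCRMA normalizes the arrays to each other, so a change shared by all transcripts would not be seen. Values of different probe sets were not tested against each other. Marker sums add linear intensities, so the brightest probe sets weigh most in them. All sample columns were used (0 left out).

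After 77 control probe sets were removed from 22625, limma 3.58.1 (R 4.3.3) was fitted to the log2 intensities of 22548, with a mean per group, no block and a variance pooled across the 18 arrays, which left 12 residual degrees of freedom and added 0.332 from the prior. The contrasts were the 5 compounds against DMSO and the 10 pairs of compounds, with Benjamini-Hochberg adjustment over all probe sets in each comparison. An equal unadjusted p can therefore give different adjusted values in different comparisons. Folds are ratios of geometric means, their SE and 95% intervals come from limma, and each mean ± SD is of linear intensities. The number of arrays limits the precision. The fit was also run on simulated data with independent noise, which lacks the spread shared between genes, and no result rests on it.

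Probe sets were named from the platform annotation, 20766 with 1 gene, 887 with several and 895 with none. All 9 members matched RefSeq (WBcel235), which was used for names, chromosomes and neighbours. Sequences were not used here. Named genes are all members, the 3 probe sets most like each called member, and up to 4 called genes per list. Uncalled list genes and markers at the floor are named beside them, outside that rule and after their values were seen. The members and lists were chosen with earlier results of these data known. Alternatives were quantile normalization, median centring, an offset of 16, brighter probe sets alone, probe sets of 1 gene, array weights, adjusted p alone, compound and DMSO arrays alone, a replicate block and leaving out arrays. Figures were drawn with matplotlib 3.10.9.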

Additional observations from a re-analysis of the deposited data

How the results depend on the processing

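Over 3160 alternatives for the 120 fold changes of measured members, 3123 stayed called or stayed not called, 10 lost a call, 27 gained one and 0 called values reversed. Among those 3123 were 77 values, not called in either fit, that changed sign. The 5 counts of members called lower stayed at 0 under every alternative run.

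For LK32 the count called higher was 1 instead of 0 among the brighter probe sets (lbp-3) and with array weights (lbp-7). For LK34 it was 2 instead of 1 with array weights and by adjusted p alone. For LK35 it was 2 instead of 1 by adjusted p alone, 1 to 2 when single arrays were left out, 2 with 3 arrays (LK38 C, LK35 A, LK32 C) left out together and 0 with the compound and DMSO arrays alone. For LK38 it was 2 instead of 1 after median centring, among the brighter probe sets and with array weights, 1 to 2 when single arrays were left out, 2 without those 3 arrays and 0 with the compound and DMSO arrays alone. For LK56 it was 0 to 1 when single arrays were left out and 1 without those 3 arrays, against 0. The omission of the 3 arrays, the least like their own groups in LK32, LK35 and LK38, was chosen after seeing the data. The cause of these changed counts was not tested. Some of these fits also hold fewer arrays or probe sets, and the part of that was not tested either.

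Between compounds, 9 calls instead of 4 were made with array weights and by adjusted p alone, and 2 to 7 when single arrays were left out, 2 without LK32 A or LK32 B and 7 without LK38 C. By the F test, 5 members instead of 3 passed among the brighter probe sets and 7 with array weights. The array weights fit stopped before it converged.

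The replicate letters did not pair the samples over the groups: deviations from the group means correlated at 0.033 on average over 45 pairs of arrays with the same letter and at -0.017 over 90 with different letters, and 7 of 18 arrays were closest to their own letter. All 3 same-letter correlations passed 0.1 only between LK34 and LK38, at 0.542 for A, 0.103 for B and 0.787 for C. A replicate block changed no call of a member, but it fits letter effects shared by all 6 groups. It therefore cannot show what a pairing of LK34 and LK38 alone would change, and no paired fit of them was run. With the letter as a replicate block, 0, 1, 1, 1 and 0 members were called higher with LK32, LK34, LK35, LK38 and LK56, 4 calls were made between compounds and 2 members passed the F test, and the adjusted p of lbp-5 with LK34 was 0.0673.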
